A study of Danio rerio with 2 samples.

Results

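Wnt pathway genes were examined in the RNA recovered on anti-FLAG beads from zebrafish embryos carrying Flag-tagged Cpeb1b (RNA immunoprecipitation and sequencing, RIP-seq). The members were taken by gene name. They comprised the Wnt ligands, their modification and export genes, the Frizzled and LRP receptors, and the secreted agonists and antagonists. The Dishevelled, APC, GSK3 and beta-catenin genes and the TCF/LEF factors were also included. The members covered 68 of the 33737 rows of the deposited table, or 68 of the 21939 rows that carry a gene symbol. They had 58 distinct symbols. The series has 1 group, Flag_Cpeb1b, of 2 replicates that its design text calls biological. Both came from wild type embryos that received Flag-cpeb1b mRNA by injection and were taken at 16 hpf (hours after fertilization), when the somites are forming. Injected mRNA reaches many tissues, so the bait was not limited to the cells that make it in the normal embryo. No input, control antibody or uninjected sample was analysed here, so the values are levels in the precipitate and say nothing of enrichment.

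Wnt proteins are secreted lipid-modified signals. In the beta-catenin branch they bind a Frizzled receptor together with LRP5 or LRP6, Dishevelled then disables the complex of Axin, APC and GSK3 that marks beta-catenin for destruction, and beta-catenin enters the nucleus and acts with TCF/LEF factors. In the zebrafish embryo this branch keeps tail bud progenitors and sets the posterior limit of the forebrain, while a second branch through Frizzled and planar polarity proteins drives convergence and extension of the body axis. Cpeb1b, the bait, belongs to a family that binds sequence elements in the 3′ ends of mRNAs and controls their tail length and translation.

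Values are mean RPKM (read density per kilobase of gene model, corrected for library size), taken here as the authors' average over both replicates. Neither an SD nor a test between samples could be computed. By a depth estimated from the values themselves, RPKM 1 corresponded to about 13.1 reads per kilobase over both libraries together. For a gene model of 1 kb the counting error was then 27.6% at RPKM 1 and 8.73% at RPKM 10. Intervals given below are exact 95% Poisson or binomial limits for models of 1 kb and cover counting error only. For intervals of ratios, reads per kilobase were first rounded to whole numbers, which matters for the lowest rows. In a lysate of whole embryos, fewer cells of a type and less RNA per cell cannot be told apart. All 21 rows of the marker list for somite, tail bud and notochord, neural tissue, epidermis, yolk layer, eye field and blood stood at RPKM 1 or more, against 46.8% of all rows with a symbol, and 1 marker entry matched no symbol. They ran from 1.08 RPKM for rx3 to 319 RPKM for krt4, and the eye field marker rx3 and the blood marker gata1a (1.12 RPKM) lay barely over the threshold. The marker list was chosen with earlier results of these data known.

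Transcripts of the pathway ran from a listed 0 to 40.7 RPKM, with most intracellular components above RPKM 1 and most ligands under it. Of the 68 member rows 37 stood at RPKM 1 or more (54.4%), against 46.8% of all rows with a symbol and 38.6% of all rows. The median of the members was 1.18 RPKM, against 0.854 RPKM for all rows with a symbol. At RPKM 0.1 or more stood 62 of the 68 members, where the background was 82.6%. At RPKM 5 or more stood 15 of the 68, where it was 16.0%, and at RPKM 10 or more 8 (11.8%), where it was 7.79%. The share lay somewhat above the background at each of these thresholds, which was not tested. The class medians given below differed more from one another than the members did from all rows with a symbol. Medians of small classes tend to do so in any division, and this was not tested. The summed RPKM of the 68 rows was unequally divided, since the 5 highest rows held 39.7% of it and sfrp2l alone 15.6%.

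**Figure D1:**
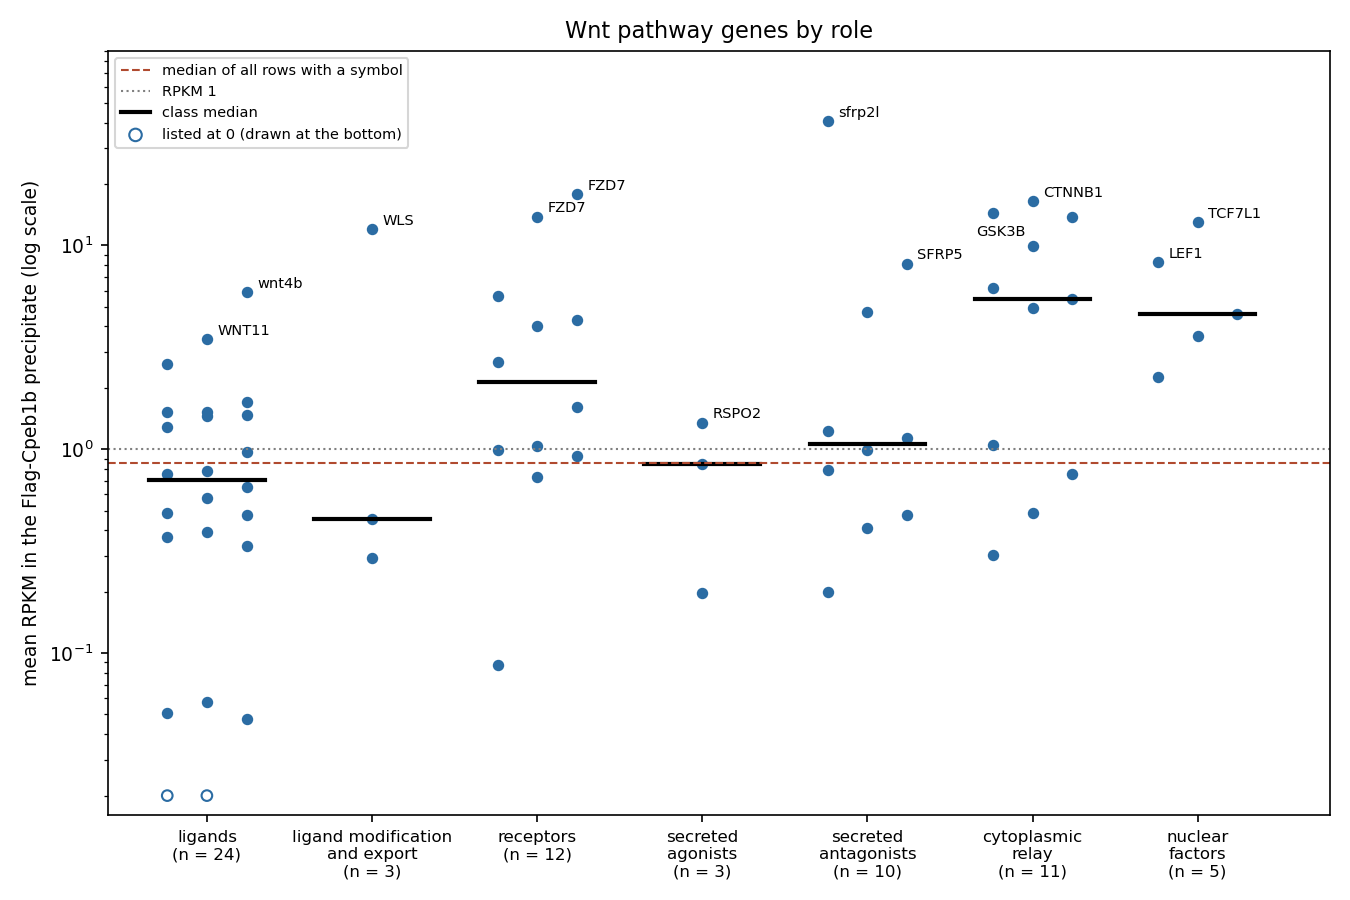
Mean RPKM in the precipitate (log scale) of each of the 68 Wnt pathway rows, grouped by role; black bars are class medians, the dashed line is the median of all rows with a symbol (0.854) and the dotted line RPKM 1. The cytoplasmic and nuclear classes have medians of 5.45 and 4.60 RPKM, the ligands 0.703 RPKM, and sfrp2l lies highest at 40.7 RPKM.

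Ligand transcripts were the lowest of the larger classes. Of 24 ligand rows 9 stood at RPKM 1 or more (37.5%, under the 46.8% of all rows with a symbol), none reached 10, and the median was 0.703 RPKM, above 46.3% of rows with a symbol. The highest was wnt4b, which is expressed in the floor plate, at 5.89 RPKM (about 77.3 reads per kilobase). WNT11, a ligand of the convergence and extension branch, had 3.47 RPKM and its relative wnt11f2, the gene of the silberblick mutant, 1.46 RPKM. WNT1, which marks the midbrain-hindbrain boundary, had 2.61 RPKM.

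Several further ligands lay close together in level. WNT6 had 1.71 RPKM, and the tail bud ligand WNT3A and its relative wnt3 had 1.53 RPKM each. WNT8B, a ligand of the forebrain and midbrain, had 1.45 RPKM and WNT4 1.29 RPKM. For a model of 1 kb the interval for WNT4 (0.752 to 2.07 RPKM) takes in all 5 values. Their differences were not tested, so no order among them is claimed. Under RPKM 1 lay 15 ligand rows, led by wnt7ba at 0.970 RPKM and WNT9B at 0.781 RPKM. WNT8A, the ventrolateral and tail bud ligand of the gastrula and somite stages, had 0.753 RPKM on 1 row and was listed at 0 on the other. WNT16 was also listed at 0, and wnt6a, wnt2 and WNT10A stood at 0.0572, 0.0506 and 0.0475 RPKM, which is under 1 read per kilobase each. A listed 0 does not show a low level in this table, as the translation factor gene EIF3H and the mitochondrial ribosome gene MRPS22 were listed at 0 too.

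Neighbouring ligand genes limit some of these values. In the RefSeq annotation of assembly GRCz12tu the span of wnt1 lies inside that of wnt10b, and wnt8a and wnt8-2 share 1 span. Whether the authors' counting used strand or split such reads is not given in the sources used here, so WNT1 and WNT10B (0.654 RPKM), and the 2 rows named WNT8A, may share reads.

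The ligand modification and export genes, called export genes below, stood far apart. WLS, the carrier that escorts lipid-modified Wnt proteins to the cell surface, had 12.1 RPKM, above every ligand row and above 93.5% of rows with a symbol. The 2 rows named PORCN, the acyltransferase that adds the lipid, had 0.452 and 0.292 RPKM. WLS was thus 26.7 times the higher PORCN row.

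Receptor transcripts had a median of 2.15 RPKM, and 8 of 12 rows stood at RPKM 1 or more (66.7%, against the 46.8% of all rows with a symbol). The 2 rows named FZD7 were the highest, with 17.8 RPKM (ENSDARG00000027589) and 13.8 RPKM (ENSDARG00000060004). Frizzled7 proteins carry Wnt11 signals in zebrafish gastrulation. FZD10 had 5.67 RPKM, the higher FZD3 row 4.28 RPKM and FZD2 2.68 RPKM. LRP5, the co-receptor of the beta-catenin branch, had 4.00 RPKM. Close to the threshold lay the higher FZD9 row at 1.04 RPKM just above it, and FZD5 at 0.991 RPKM and the lower FZD3 row at 0.922 RPKM just under it. The lowest were the lower FZD8 row at 0.727 RPKM and the other FZD9 row at 0.0871 RPKM.

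The secreted modulators ranged widely in level. Of the 10 secreted antagonist rows 5 stood at RPKM 1 or more (50.0%, against the 46.8% of all rows with a symbol). The split of this class by family was not among the planned classes. Secreted Frizzled-related proteins (SFRP), which bind Wnt ligands or Frizzled, had the highest member of the pathway, sfrp2l, at 40.7 RPKM (about 534 reads per kilobase, above 98.2% of rows with a symbol). SFRP5 had 8.13 RPKM and the higher SFRP1 row 4.72 RPKM, and 4 of the 5 SFRP rows stood at RPKM 1 or more (background 46.8%). The related frzb had 1.22 RPKM and SFRP2 1.13 RPKM. None of the 4 Dickkopf rows reached RPKM 1 (background 46.8%). The gene dkk1b, whose product blocks the LRP co-receptor, had 0.993 RPKM, dkk2 0.787 RPKM, dkk1a 0.474 RPKM and DKK3 0.409 RPKM. The lowest antagonist was the second SFRP1 row at 0.199 RPKM. The value of dkk1b lies within counting error of RPKM 1 (0.529 to 1.70 RPKM). That interval, for a model of 1 kb, also takes in the values of SFRP2 and frzb. The differences of these rows from dkk1b were not tested, so no order among them is claimed. The R-spondins, secreted agonists that stabilise the receptors, had 1.35 RPKM for RSPO2, 0.844 RPKM for RSPO3 and 0.197 RPKM for RSPO4.

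Cytoplasmic relay transcripts had the highest class median, 5.45 RPKM, above 85.3% of rows with a symbol, and 8 of 11 rows stood at RPKM 1 or more (72.7%, against the 46.8% of all rows with a symbol). The rank depends on the setting, since nuclear factors exceeded the relay on geometric means (5.43 against 4.25 RPKM with a pseudocount of 1). With 1 row per symbol the export genes, only WLS and the higher PORCN row, exceeded the relay (6.26 against 6.21 RPKM). Over rows at RPKM 1 or more only, WLS alone remained of the export genes and exceeded the relay median (12.1 against 8.07 RPKM). CTNNB1, which encodes beta-catenin, had 16.4 RPKM and ctnnb2, the second beta-catenin gene, required maternally for the dorsal axis, 6.21 RPKM. The kinase genes GSK3B and GSK3A (higher row) had 14.4 and 9.94 RPKM, and the scaffold gene APC 5.45 RPKM. Of the Dishevelled genes DVL3 had 13.7 RPKM and dvl2 4.93 RPKM. The 2 rows named DVL1 were the lowest of the class at 0.487 and 0.303 RPKM. The Dishevelled family and the GSK3 family each held a row over RPKM 10 and a row under RPKM 1.

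Each of the 5 TCF/LEF rows stood at RPKM 1 or more (background 46.8%), with a median of 4.60 RPKM. TCF7L1, a repressor of Wnt targets that the zebrafish forebrain requires, had 13.0 RPKM and its paralogue tcf7l1b 3.60 RPKM. LEF1, an activating factor of the tail bud, had 8.30 RPKM and TCF7L2 4.60 RPKM. TCF7 was the lowest of the class at 2.26 RPKM, still above 70.0% of rows with a symbol.

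Set against each other, the 4 classes from relay to ligands differed in level. The cytoplasmic relay median was 7.76 times the ligand median (5.45 against 0.703 RPKM, 2.96 on the log2 scale), the nuclear factor median 6.54 times it (2.71), and the receptor median 3.05 times it (1.61). The cytoplasmic relay exceeded the receptors 2.54-fold (5.45 against 2.15 RPKM, 1.35 on the log2 scale). The receptor median was 2.02 times that of the secreted antagonists (2.15 against 1.06 RPKM, 1.02 on the log2 scale). Over rows at RPKM 1 or more only it was lower, by -0.19 on the log2 scale. On mean log2(RPKM + 1) receptors exceeded the antagonists by 0.25. The classes overlapped, since the highest ligand, wnt4b, stood above the median of the cytoplasmic relay and its lowest row, DVL1, under the median of the ligands. Members are not replicates, so these ratios describe the genes named and carry no test.

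Paralogues of the same protein were recovered at unequal levels in many cases. Among 20 pairs of rows that share a symbol or are named as paralogues, 8 differed 4-fold or more, 6 differed between 2-fold and 4-fold, 5 differed less than 2-fold, and 1 pair, WNT8A, had a row listed at 0. In 6 of the 20 pairs 1 row stood at RPKM 1 or more and the other under it. How often unrelated rows differ as much was not computed. The quartiles of all rows with a symbol were 0.202 and 2.90 RPKM. The pair counts therefore do not show that paralogues are more unequal than other rows. The widest ratios were 36.0 for sfrp2l over SFRP2 (40.7 against 1.13 RPKM, interval 21.4 to 64.1) and 29.9 for WNT6 over wnt6a. The ratio for WNT6 rests on 0.752 reads per kilobase in wnt6a, rounded to 1 for its interval (3.56 to 908).

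Within the relay, GSK3B exceeded gsk3bb 19.0-fold (14.4 against 0.759 RPKM, interval 10.1 to 40.1). The rows named GSK3A differed 9.45-fold (9.94 against 1.05 RPKM, interval 5.38 to 17.6). Among receptors the FZD9 rows differed 11.9-fold (1.04 against 0.0871 RPKM, interval 2.13 to 592) and the FZD3 rows 4.65-fold (4.28 against 0.922 RPKM, interval 2.47 to 9.57). The SFRP1 rows differed 23.7-fold (4.72 against 0.199 RPKM, interval 6.75 to 103), and wnt4b exceeded WNT4 4.56-fold (5.89 against 1.29 RPKM, interval 2.65 to 8.17). By comparison the FZD7 rows differed 1.28-fold (interval 1.05 to 1.56), and CTNNB1 exceeded ctnnb2 2.65-fold (interval 2.06 to 3.49). For 6 pairs the interval included 1, and how reads of near-identical copies were divided is not known for any of them.

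**Figure D2:**
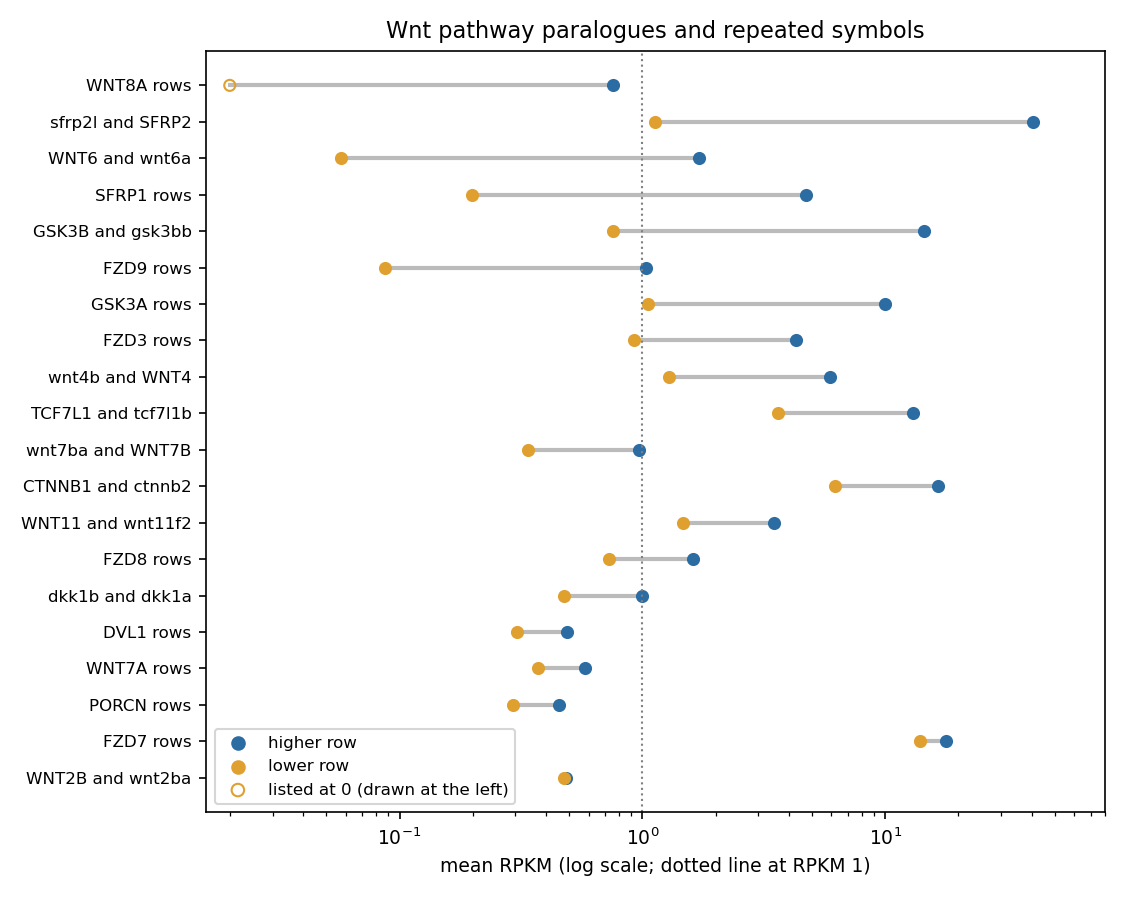
Mean RPKM (log scale) of the higher (blue) and lower (orange) row in 20 pairs of Wnt pathway rows that share a symbol or are named as paralogues, ordered by their ratio. The FZD7 rows lie together at 17.8 and 13.8 RPKM, while sfrp2l (40.7) and SFRP2 (1.13) lie 36.0-fold apart.

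Further genes of the pathway that the names above do not cover were taken from a list of 78 entries, of which 62 matched a symbol and gave 63 rows. Of these, 51 stood at RPKM 1 or more (81.0%, against 46.8% of all rows with a symbol), with a median of 3.69 RPKM. The list was chosen with earlier results of these data known, so this excess is no independent result. Its rows tbx6, tbx16 and TBXT are also on the marker list. The same 46.8% is the background of each group count that follows. By group the secreted rows had the lowest median and the tail bud targets the highest. The secreted group had 1 of 5 rows at RPKM 1 or more, with a median of 0.267 RPKM. Its highest were WIF1, a Wnt-binding inhibitor, at 1.17 RPKM, the coagulation inhibitor gene TFPI at 0.874 RPKM and notum2 at 0.267 RPKM.

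The surface and planar polarity groups had medians between those of the secreted and nuclear groups. The planar polarity group was defined by pathway and not by place in the cell. The surface group had 8 of 9 rows at RPKM 1 or more, with a median of 2.16 RPKM. The glypican gene GPC4, mutated in knypek, had 5.85 RPKM, the receptor RYK 5.24 RPKM and PTK7 4.60 RPKM. Of 13 planar polarity rows 10 stood at RPKM 1 or more, with a median of 2.46 RPKM. SCRIB had 15.9 RPKM, VANGL2, the gene of the trilobite mutant, 13.9 RPKM, and the higher DAAM1 row 7.69 RPKM, while VANGL1 had 0.182 RPKM.

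The intracellular groups and the target genes had the highest medians. The cytoplasmic group had 12 of 14 rows at RPKM 1 or more, with a median of 4.69 RPKM, led by the casein kinase genes CSNK1D (9.74 RPKM) and csnk1da (8.30 RPKM) and by amer1 (8.20 RPKM). The nuclear group had 9 of 10 rows at RPKM 1 or more, with a median of 4.46 RPKM. It was led by the corepressor genes tle2a (18.6 RPKM) and ctbp1 (higher row, 10.5 RPKM) and by BCL9 (7.06 RPKM), a beta-catenin partner. The lower CTBP1 row had 1.35 RPKM and tle2b 0.702 RPKM. Target genes of the tail bud had 11 of 12 rows at RPKM 1 or more, with a median of 5.29 RPKM. The posterior homeobox gene cdx4 had 24.4 RPKM, and the presomitic mesoderm genes msgn1 and tbx6 had 14.8 and 11.2 RPKM. These highest values of the group exceed those of each of the 24 ligands, but other target rows do not. The FGF8 rows had 4.12 and 0.0656 RPKM and TBXT 1.43 RPKM, all under the highest ligand, wnt4b (5.89 RPKM).

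**Figure D3:**
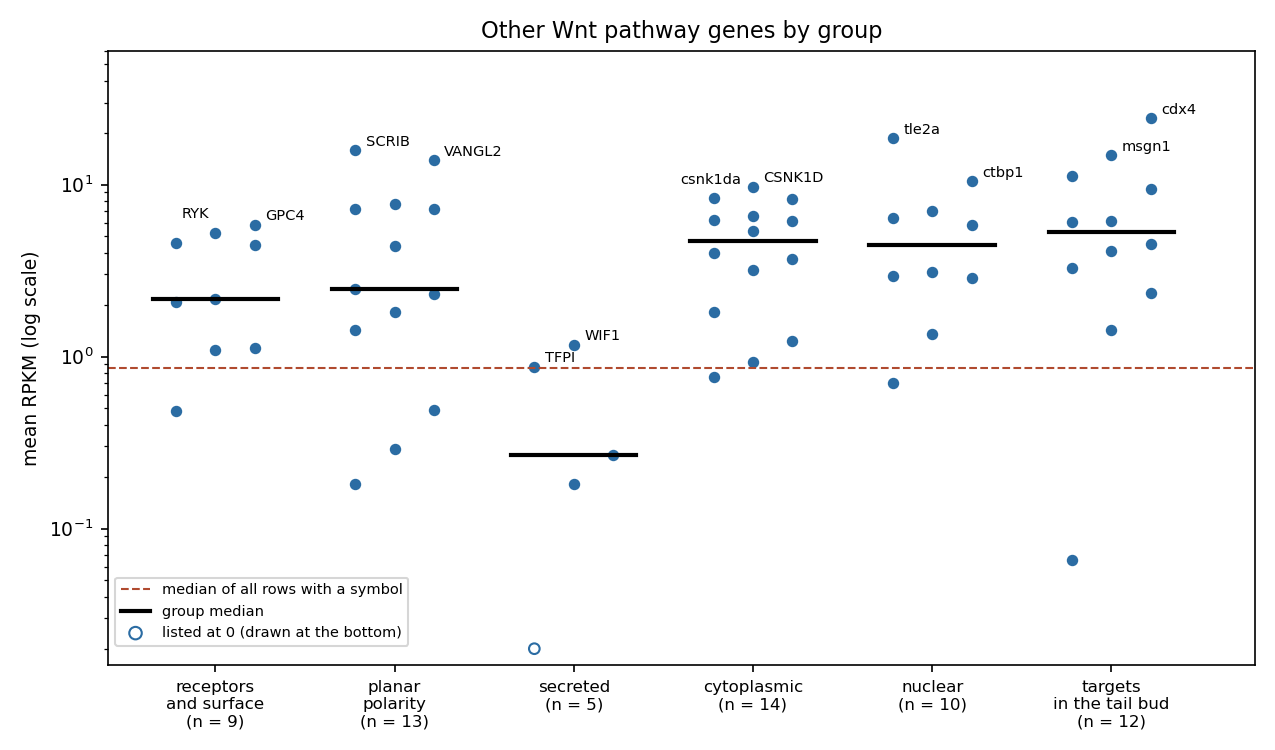
Mean RPKM (log scale) of 63 further Wnt pathway rows by group; black bars are group medians and the dashed line is the median of all rows with a symbol. The secreted group lies lowest with a median of 0.267 RPKM, and the tail bud targets highest with a median of 5.29 RPKM.

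Ligands also had a lower median than receptors in 2 related signalling pathways. Receptors stood above ligands in the Wnt pathway 3.05-fold by their medians (2.15 against 0.703 RPKM), in the BMP and TGF-beta pathway 2.78-fold (2.55 against 0.919 RPKM) and in the FGF pathway 10.1-fold (3.18 against 0.314 RPKM). The intracellular median, cytoplasmic and nuclear members together, was 5.19 RPKM for Wnt, 2.57 RPKM for BMP and TGF-beta (Smad genes) and 5.75 RPKM for FGF. The FGF set held Sprouty, Spred, DUSP6 and ETV genes besides FRS2, grb2b, SOS2 and PTPN11. These sets were taken by name and are not matched in kind. The BMP and TGF-beta ligands were not the lowest of their pathway, since its 13 secreted antagonist rows had a median of 0.877 RPKM, and they lay above the median of all rows with a symbol (0.854 RPKM). Of the ligand rows, 37.5% stood at RPKM 1 or more for Wnt, 43.8% for BMP and TGF-beta and 20.8% for FGF, against the background of 46.8%. The name patterns also took some rows that are no ligands or receptors, such as BMP2K and FGFR1OP2. Without 3 ligand rows and 1 receptor row of that kind the ratio was 3.31 for BMP and TGF-beta, and without 6 ligand rows and 1 receptor row it was 10.2 for FGF, in an alternative chosen after seeing the data. No test of a difference between the pathways was possible with 1 value per gene.

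**Figure D4:**
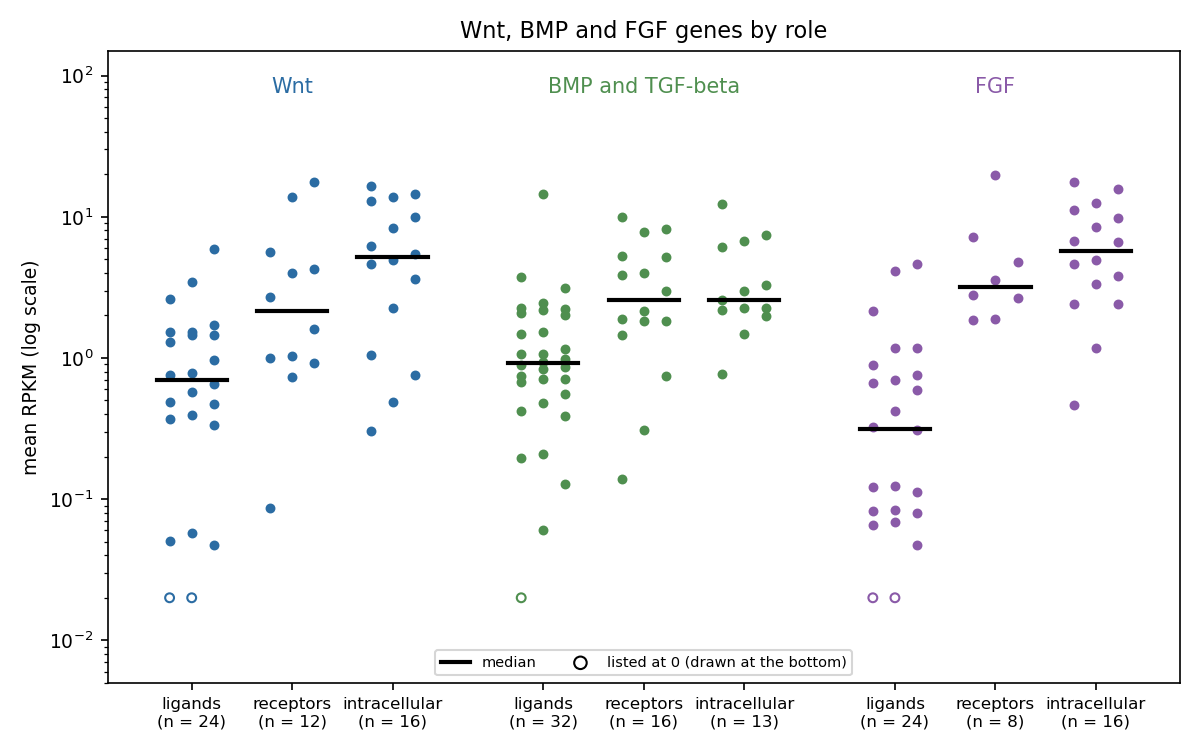
Mean RPKM (log scale) of Wnt, BMP and TGF-beta, and FGF pathway rows, divided into ligands, receptors and intracellular genes; secreted antagonists are not drawn and black bars are medians. In each pathway the ligand median (0.703, 0.919 and 0.314 RPKM) lies under the receptor median (2.15, 2.55 and 3.18 RPKM).

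Central genes of the pathway are not among these values. The table of gene names gives 11 further identifiers with member names, AXIN1, AXIN2, LRP6, WNT5A, WNT5B, FZD1, FZD4, fzd6, RSPO1 and second entries for DKK3 and DVL3. None of these identifiers has a row among the deposited values, so the counts above cover neither Axin nor the Wnt5 ligands. Whether such genes stand on rows without a symbol was not examined.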

How the data were processed

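RNA bound to anti-FLAG beads was fragmented and made into libraries with a small-RNA kit, per the labels' protocols. The authors deposited 1 RPKM value per Ensembl gene. The name of the table calls it a mean, and it was taken here as the mean over the 2 replicates of the series. The submitters' processing notes name the Zv9 build, TopHat2 2.1.1 and Bowtie, bedtools 2.16.2 and MACS2 2.0.10, FastQC, Trimmomatic 0.36 and cutadapt 1.13. What each did here, the annotation, gene lengths, strand use and the handling of multiply aligned reads were not given in the sources used here.

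Symbols were joined to identifiers for 21939 of 33737 rows (65.0%), and members were taken by name with letter case ignored. Symbols in capitals were not assigned to a paralogue. The list of further genes was matched by name, or without a final a or b. Detection meant RPKM 1 or more. Depth was read from values of 0.4 to 2 shared by at least 3 rows: steps of 76.0 and 76.3 RPKM × nt gave whole lengths (tolerance 0.002) for 135 of 171 such rows, which, for a plain mean of 2 libraries, are 6576773 and 6551367 reads. The search was tested on simulated data. It covered a limited range of steps, and a smaller step that divides those found would fit the same rows. The simulated depths lay inside that range, so the test cannot exclude a greater depth. The reads per kilobase and intervals given here rest on this estimate. Computations used Python 3.11.15, numpy 2.4.6, pandas 2.3.3 and scipy 1.17.1. Alternatives changed the threshold, the rows per symbol, the highest row and the average, with pseudocounts of 1 and 0.1.

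Named were the 4 highest and 2 lowest rows of each class, pairs differing 4-fold or more, members at 0, and the 3 highest of each further group; others were chosen after their values were seen. The members and lists were chosen with earlier results of these data known. No sequence was used here.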

Additional observations from a re-analysis of the deposited data

How the results depend on the processing

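Of the 68 members 37 were called detected at RPKM 1, 62 at RPKM 0.1 and 15 at RPKM 5. The background shares were 46.8%, 82.6% and 16.0% of rows with a symbol. With 1 row per symbol, the highest, 35 of 58 members were detected at RPKM 1. The background share was not computed for that setting, and the 46.8% over every row is not comparable with it. Of the further pathway genes 25 stood at RPKM 5 or more, against 51 at RPKM 1. Over rows at RPKM 1 or more only, medians were 1.53 RPKM for ligands, 4.14 for receptors, 4.72 for secreted antagonists and 8.07 for the cytoplasmic relay. The export genes had 12.1 RPKM there, from WLS alone. The receptor median was lower there than that of the antagonists (-0.19 on the log2 scale, against 1.02 over every row). In that setting nuclear factors exceeded ligands by 1.59. With 1 row per symbol the export median, over WLS and the higher PORCN row, was 6.26 RPKM and the receptor median 3.34. Geometric means with a pseudocount of 1 were 1.90 RPKM for export genes, 2.13 for antagonists and 4.25 for the relay, and with 0.1 they were 1.28 for export genes and 3.51 for the relay. Nuclear factors stood above the relay in both (5.43 and 5.29 RPKM). On mean log2(RPKM + 1) the relay exceeded ligands by 1.5 and receptors by 0.50, and on log2(RPKM + 0.1) it exceeded receptors by 0.64. Receptors exceeded secreted antagonists by 0.25 on mean log2(RPKM + 1) and by 0.43 on mean log2(RPKM + 0.1). The order of receptors, relay and nuclear factors above ligands held in each of the 5 alternatives. No paired analysis was possible because all samples belong to 1 group. Neither replicate could be left out, since the authors deposited only a mean. Depth limits single members near RPKM 1, where a 1 kb model has about 13.1 reads by the depth estimate.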
